A study of Mus musculus with 14 samples.

Results

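The DNA replication machinery was followed here as 51 genes out of 41053 gene rows that the count tables share. The genes were chosen by function: origin recognition and licensing, the MCM helicase, its partners and firing kinase, the polymerases, the sliding clamp and its loader, single-strand binding and Okazaki fragment maturation, nucleotide supply, and nucleosome assembly with fork protection. All 51 were found by symbol, and all 51 passed the filter on low counts in each of the 4 comparisons below. RNA sequencing of B cells from spleens of C57BL/6 mice gave 14 libraries in 4 groups. The lymphoma B cells comprised 2 libraries with a knock-down of Tet2 (shTet2, replicates 1 and 2) and 5 control libraries with a wild-type Tet2 label (control, replicates 1 to 5). The germinal center (GC) B cells comprised 4 libraries from Tet2 knock-out mice (KO, replicates 2 to 5) and 3 wild-type libraries (WT, replicates 1, 3 and 4). Tet2 encodes a dioxygenase that oxidises 5-methylcytosine in DNA. The sources used here do not give the hairpin, the deleted part of Tet2, any Cre driver, the origin of the lymphoma, the ages or the sort of the cells. Both shTet2 titles carry 1 shared code and each control title carries its own, and the labels do not explain these codes. Whether replicates are separate animals is not stated, so the p-values rest on library-to-library spread that may be technical.

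Replication starts at origins where the origin recognition complex, with CDC6 and CDT1, loads the ring-shaped MCM2-7 helicase. In S phase the kinase CDC7-DBF4 helps CDC45 and GINS to join MCM2-7, polymerases copy the opened strands behind it, and a clamp, ligase and nuclease finish the lagging strand. Germinal center B cells are known for very fast division, and many replication genes are targets of E2F transcription factors, which act at the start of S phase.

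The GC libraries held 29487244 to 30330950 counts in KO and 27191862 to 30434184 counts in WT, with at most 1.32% in rows of structural RNA. The lymphoma libraries were shallower once structural RNA was set aside: 6768491 and 5164290 counts in shTet2, and 1525344 to 6272933 in control. Structural RNA took 54.1% and 45.0% of counts in the shTet2 libraries, and 57.5% to 80.7% in control, so this share was lower in both shTet2 libraries than in every control. No member was at 0 in any library, and the lowest member count was 9 in shTet2, 3 in control, 136 in KO and 188 in WT. Tet2 itself was at 86.0 and 79.4 CPM (counts scaled to library size) in shTet2, against 89.0 to 105 CPM in control (log2 fold change -0.21, SE 0.10, adjusted p = 0.295 by edgeR's quasi-likelihood test with Benjamini-Hochberg adjustment). In GC cells Tet2 was at 7.79 to 9.53 CPM in KO, against 7.53 to 8.95 CPM in WT (log2 fold change 0.04, SE 0.13, adjusted p = 0.909). Neither comparison passed the test for Tet2, and a count over the whole gene does not check a deletion of unknown extent, so shTet2 and KO are used here as the labels give them. The B cell markers Cd79a, Cd79b, Ms4a1 and Pax5 summed to 2046 to 2573 CPM in shTet2, 2427 to 2732 CPM in control, 3117 to 3579 CPM in KO and 3166 to 3398 CPM in WT. The germinal center B cell markers Bcl6, Fas, Mybl1 and S1pr2 summed to 244 to 343 CPM in shTet2, 177 to 223 CPM in control, 761 to 818 CPM in KO and 684 to 850.3 CPM in WT. In bulk libraries, fewer cells that express a gene and less RNA per cell cannot be told apart.

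Promoters of members that differed in the lymphoma libraries are shown to let the E2F-type letters be seen beside the expression values that follow. The sequences are from RefSeq on mouse build GRCm38.p6, which shares its chromosome coordinates with the build of the counts. A window from 250 bases before to 50 bases after an annotated start was found for 42 of the 51 genes, as 49 windows. The letters searched were TTTCCCGC, TTTCGCGC, TTTGCCGC and TTTGGCGC on both strands, and matches may overlap. At least 1 match stood in 15 of the 49 windows (30.6%), against 2.27% of 32851 windows of the same length around all annotated starts. The stretches below run from 180 bases before to 30 bases after the start, on the strand of the gene, in lower case with each E2F-type match in capitals. Cdc6 lies at chr11:98907971-98908180 on the plus strand, Mcm5 at chr8:75109329-75109538 on the plus strand, Mcm6 at chr1:128359676-128359885 on the minus strand, Pola1 at chrX:93632126-93632335 on the minus strand and Clspn at chr4:126556800-126557009 on the plus strand. Mcm10, at chr2:5012762-5012971 on the minus strand, and Pcna, at chr2:132253151-132253360 on the minus strand, are set beside them because their windows hold no match.
Cdc6: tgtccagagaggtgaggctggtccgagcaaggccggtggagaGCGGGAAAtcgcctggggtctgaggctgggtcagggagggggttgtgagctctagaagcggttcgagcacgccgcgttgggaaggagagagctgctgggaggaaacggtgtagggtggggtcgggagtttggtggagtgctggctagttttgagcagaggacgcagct
Mcm5: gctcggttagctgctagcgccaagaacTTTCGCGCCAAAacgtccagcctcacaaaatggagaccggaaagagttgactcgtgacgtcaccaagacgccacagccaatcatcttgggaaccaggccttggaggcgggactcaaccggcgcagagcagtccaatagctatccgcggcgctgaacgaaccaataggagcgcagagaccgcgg
Mcm6: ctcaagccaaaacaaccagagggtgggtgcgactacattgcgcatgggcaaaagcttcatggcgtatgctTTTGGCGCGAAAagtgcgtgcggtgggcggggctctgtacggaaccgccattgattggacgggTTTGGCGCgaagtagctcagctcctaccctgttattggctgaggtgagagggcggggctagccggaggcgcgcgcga
Pola1: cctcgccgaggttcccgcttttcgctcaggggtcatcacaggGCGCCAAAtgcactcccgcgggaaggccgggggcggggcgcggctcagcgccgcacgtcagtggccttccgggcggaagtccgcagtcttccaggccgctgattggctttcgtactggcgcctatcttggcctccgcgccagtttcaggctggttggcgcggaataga
Clspn: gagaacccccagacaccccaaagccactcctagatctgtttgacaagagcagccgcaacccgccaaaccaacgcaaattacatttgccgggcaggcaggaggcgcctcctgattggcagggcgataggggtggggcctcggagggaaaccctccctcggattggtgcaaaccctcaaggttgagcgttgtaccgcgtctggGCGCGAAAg
Mcm10: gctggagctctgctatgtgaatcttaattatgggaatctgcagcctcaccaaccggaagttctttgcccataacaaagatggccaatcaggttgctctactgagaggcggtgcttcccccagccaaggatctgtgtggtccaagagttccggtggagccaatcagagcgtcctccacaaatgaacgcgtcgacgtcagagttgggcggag
Pcna: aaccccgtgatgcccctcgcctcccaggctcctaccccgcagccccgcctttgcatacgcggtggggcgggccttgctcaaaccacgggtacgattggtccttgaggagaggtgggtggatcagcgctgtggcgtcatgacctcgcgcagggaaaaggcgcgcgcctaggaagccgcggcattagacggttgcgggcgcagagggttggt
The single capitalised run of Mcm5 joins 2 overlapping matches, and Mcm6 holds 3 matches of which 2 overlap. Among the 18 members called higher in shTet2 (described below), 14 had a window and 8 of these held a match, and among the 33 members not called, 28 had a window and 7 held a match. CCAAT, the box read by the factor NF-Y, stood in 55.1% of the members' windows and in 37.4% of all windows. TTTGAA, a core found in promoters of many mitotic genes, stood in 16.3% and 17.9%. These matches describe letters and not occupied sites, and Mcm10 was higher in shTet2 without a match in this window while Cdt1 was not called although it has one.

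Across the 4 groups, the members' summed level was 1514 and 1883 CPM in the shTet2 libraries, 1011 to 1209 CPM in control, 7183 to 8095 CPM in KO and 6752 to 7456 CPM in WT. The GC libraries therefore stood far above the lymphoma libraries, and the shTet2 libraries stood above every control. Per kilobase of exon, the median member was at 5.68 CPM per kb in shTet2, 3.11 in control, 29.8 in KO and 26.9 in WT. In GC cells the highest member was Rfc2, a subunit of the clamp loader, at 171 CPM per kb in KO and 149 in WT, followed by the helicase subunit Mcm5 at 156 CPM per kb in KO and 142 in WT. In lymphoma libraries the clamp Pcna came near the top, at 38.1 CPM per kb in shTet2 and 34.6 in control, which placed it 2nd in shTet2 and 1st in control but 12th of 51 in both KO and WT. The 6 subunits of the MCM2-7 ring were present at unequal levels in every group. Its highest subunit exceeded its lowest, Mcm7, by 2.33-fold in shTet2, 2.98-fold in control, 2.63-fold in KO and 2.58-fold in WT. Fen1, the flap nuclease of Okazaki fragments, was the lowest member per kilobase in KO at 1.52 and in WT at 1.93, with 0.499 in shTet2 and 0.511 in control. Fen1 shares 84.2% of its exon bases with other genes, Gins2 67.3% and Orc2 29.8%, and since no strand option was set in the counting, reads there cannot be told apart, so the levels of these 3 are uncertain. Pcna has annotated pseudogenes with which it may share reads.

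**Figure D1:**
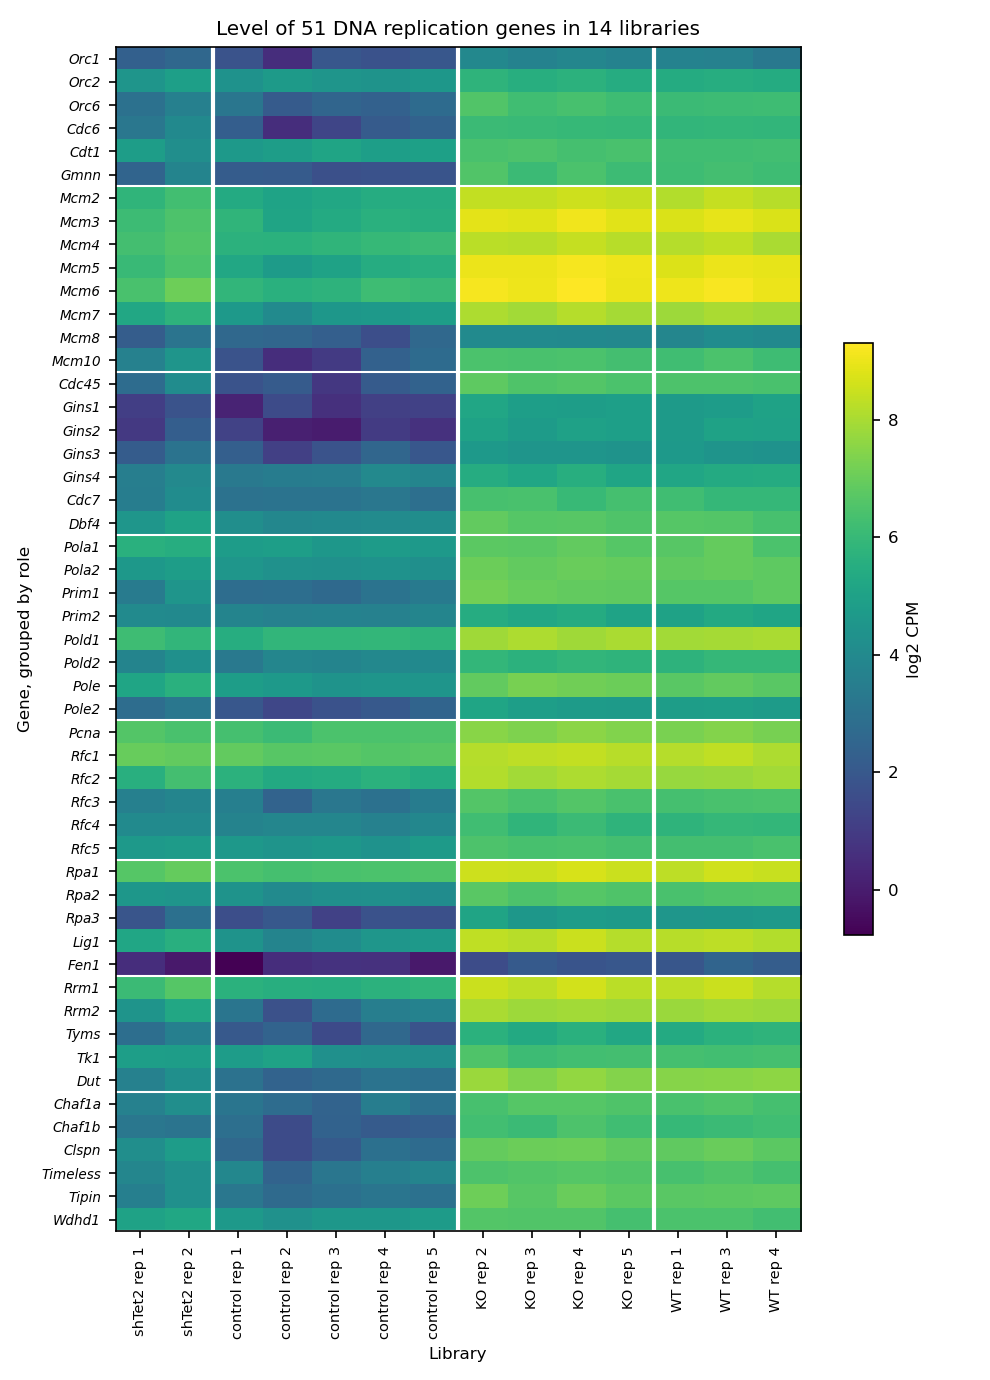
Levels of the 51 members in each of the 14 libraries (columns, grouped as shTet2, control, KO and WT), as log2 CPM, with members grouped by role (rows). The lymphoma libraries are lower than the GC libraries for every member, and replicate 2 of shTet2 was higher than replicate 1 for 40 of 51 members.

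**Figure D2:**
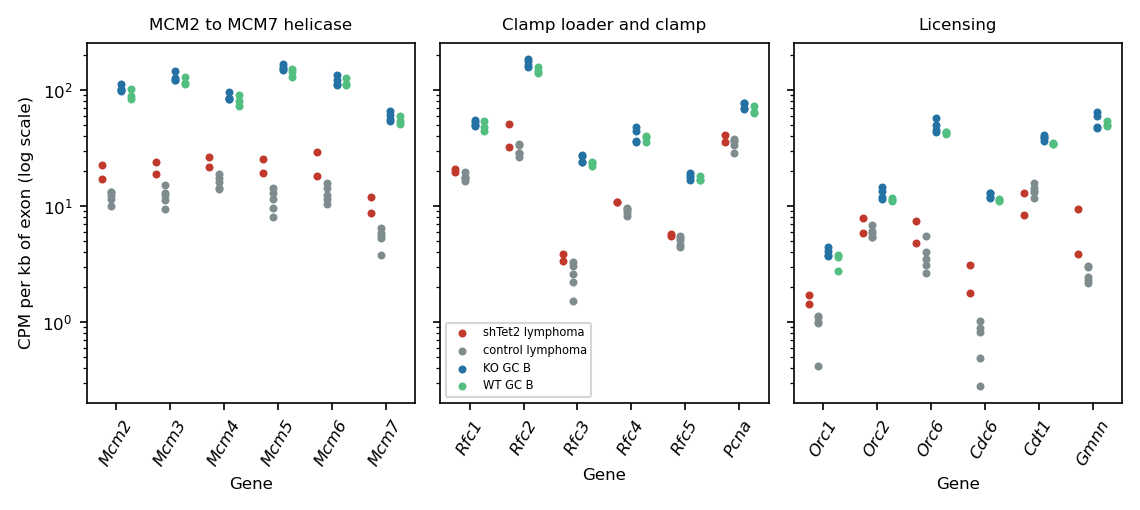
Level per kilobase of exon (log axis, CPM per kb) of the MCM2-7 ring, the clamp with its loader, and the licensing genes, 1 point a library, coloured as shTet2, control, KO and WT. Rfc2 averaged 171 CPM per kb in KO and 149 in WT, and Pcna, at 38.1 in shTet2 and 34.6 in control, had the narrowest fitted gap between control and WT among the genes drawn.

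The first comparison sets control lymphoma B cells against WT GC B cells, which gives the baseline in which the knock-down was made. Every member was lower in control lymphoma, and in none did a control library reach a WT library. All 51 were called lower at an adjusted p under 0.05, while 40.4% of the 15441 genes tested were lower and 40.2% higher; 38.5% of all genes had every control library below every WT library. The median log2 fold change of the members was -2.81, beside -0.03 over all genes tested, and the summed level in control was 16.1% of that in WT. This held in every fit that left out 1 library, with medians of -2.95 to -2.74, and under upper-quartile scaling the median was -2.40 while the median of all genes moved by 0.41. Cell type, count table and the share of structural RNA differ together between these groups and cannot be told apart.

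The sizes differed by role. Nucleosome assembly and fork protection had a median of -3.59, nucleotide supply -3.55, the MCM proteins -3.22, helicase partners and kinase -2.98, and licensing -2.64. Single-strand binding and Okazaki maturation had a median of -2.26, the polymerases -2.20, and the clamp and its loader -1.93. Rrm2, the subunit of ribonucleotide reductase whose level follows S phase, had 8.78, 3.29, 6.73, 11.5 and 12.8 CPM in control, against 221, 244 and 227 CPM in WT (log2 fold change -4.66, SE 0.23, adjusted p = 2.22e-10). Dut, which removes dUTP from the nucleotide pool, had 8.20, 5.48, 6.46, 8.35 and 7.74 CPM in control, against 178, 181 and 196 CPM in WT (log2 fold change -4.65, SE 0.14, adjusted p = 5.36e-16). Rrm2 was 25.3-fold and Dut 25.1-fold lower in control, the widest gaps of the 51. At the other end, Pcna had 80.8, 68.3, 87.8, 86.9 and 91.2 CPM in control, against 154, 175 and 152 CPM in WT (log2 fold change -0.94, SE 0.09, adjusted p = 1.5e-08). Orc2, a subunit of the origin recognition complex, had 20.9 to 26.7 CPM in control, against 42.6 to 44.9 CPM in WT (log2 fold change -0.95). Even for these narrowest gaps the libraries of the groups did not overlap.

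Between those ends, the members with the smallest p-values came from several roles. Pola2, the accessory subunit of polymerase alpha, had 19.1 to 23.2 CPM in control, against 112 to 121 CPM in WT (log2 fold change -2.50). Lig1, the ligase that seals Okazaki fragments, had 13.9 to 25.9 CPM in control, against 284 to 317 CPM in WT (-3.86). Tipin, a partner of the fork protein TIMELESS, had 6.58 to 9.37 CPM in control, against 106 to 112 CPM in WT (-3.74). Chaf1b, a subunit of chromatin assembly factor 1, had 2.92 to 7.42 CPM in control, against 62.9 to 73.8 CPM in WT (-3.76). Of these 4, Lig1 had the widest gap, 14.5-fold lower in control. Among the helicase subunits, Mcm2 had a log2 fold change of -2.91, Mcm3 of -3.27, Mcm5 of -3.64 and Mcm7 of -3.31, and the single-strand binding subunit Rpa2 one of -2.26. Cdt1, which brings MCM2-7 to origins, and its inhibitor geminin (Gmnn) differed in size: Cdt1 had 26.0 to 34.8 CPM in control, against 74.7 to 76.7 CPM in WT (-1.31), while Gmnn had 3.18 to 4.49 CPM in control, against 72.1 to 78.7 CPM in WT (-4.35).

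**Figure D3:**
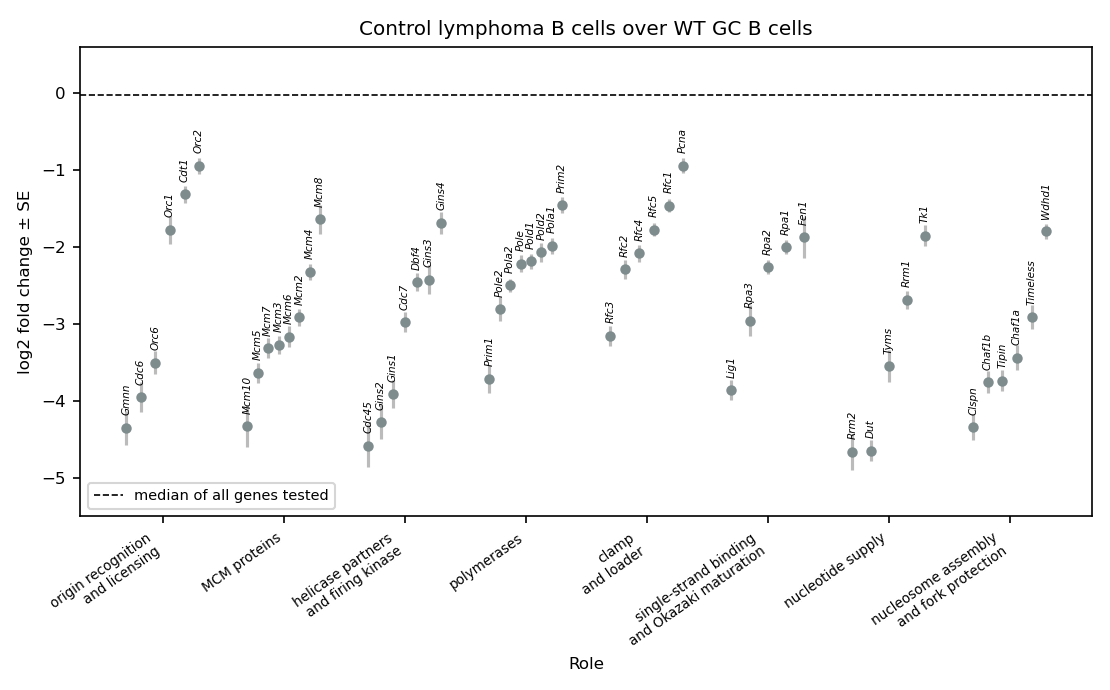
Fitted log2 fold change of control lymphoma over WT GC B cells for each of the 51 members by role, with bars of 1 SE. All values lie below 0, from -4.66 for Rrm2 to -0.94 for Pcna.

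The second comparison sets shTet2 against control lymphoma B cells. Replication genes were higher in shTet2: 18 of 51 members were called higher (35.3%) and 0 lower, while 1.84% of the 12797 genes tested were higher and 0.742% lower. The median member was higher by 0.68 on the log2 scale, beside -0.00 over all genes tested, and the summed level was 1.51-fold that of control. A positive fold change was found for 49 of 51 members, beside 6328 of the 12797 genes tested. Both shTet2 libraries lay above every control library for 33 members (64.7%), against 12.5% of all genes tested, and for no member did both lie below, against 8.52%. At an unadjusted p under 0.05 there were 33 members higher and 1 lower, Cdt1, beside 2447 of the 12797 genes tested, 1356 of them higher. The number called depended on single libraries: it was 2 without control replicate 3, 5 without control replicate 1 and 10 without control replicate 2. Calls over all genes fell too, to 100 of 12326, 127 of 12623 and 143 of 12784, against 330 of 12797 with every library kept. Calls among the members and over all genes also fell without shTet2 replicate 2, and rose without shTet2 replicate 1. Across fits without 1 library, including those with 1 shTet2 library, the members' median ran from 0.41 to 0.85. The 18 kept their sign in each of these fits. With the share of structural RNA as a covariate, an alternative chosen after seeing the data, 0 of the 51 members and 0 of 12797 genes were called by edgeR, with 4 members at an unadjusted p under 0.05, and the members' median was 0.38.

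**Figure D4:**
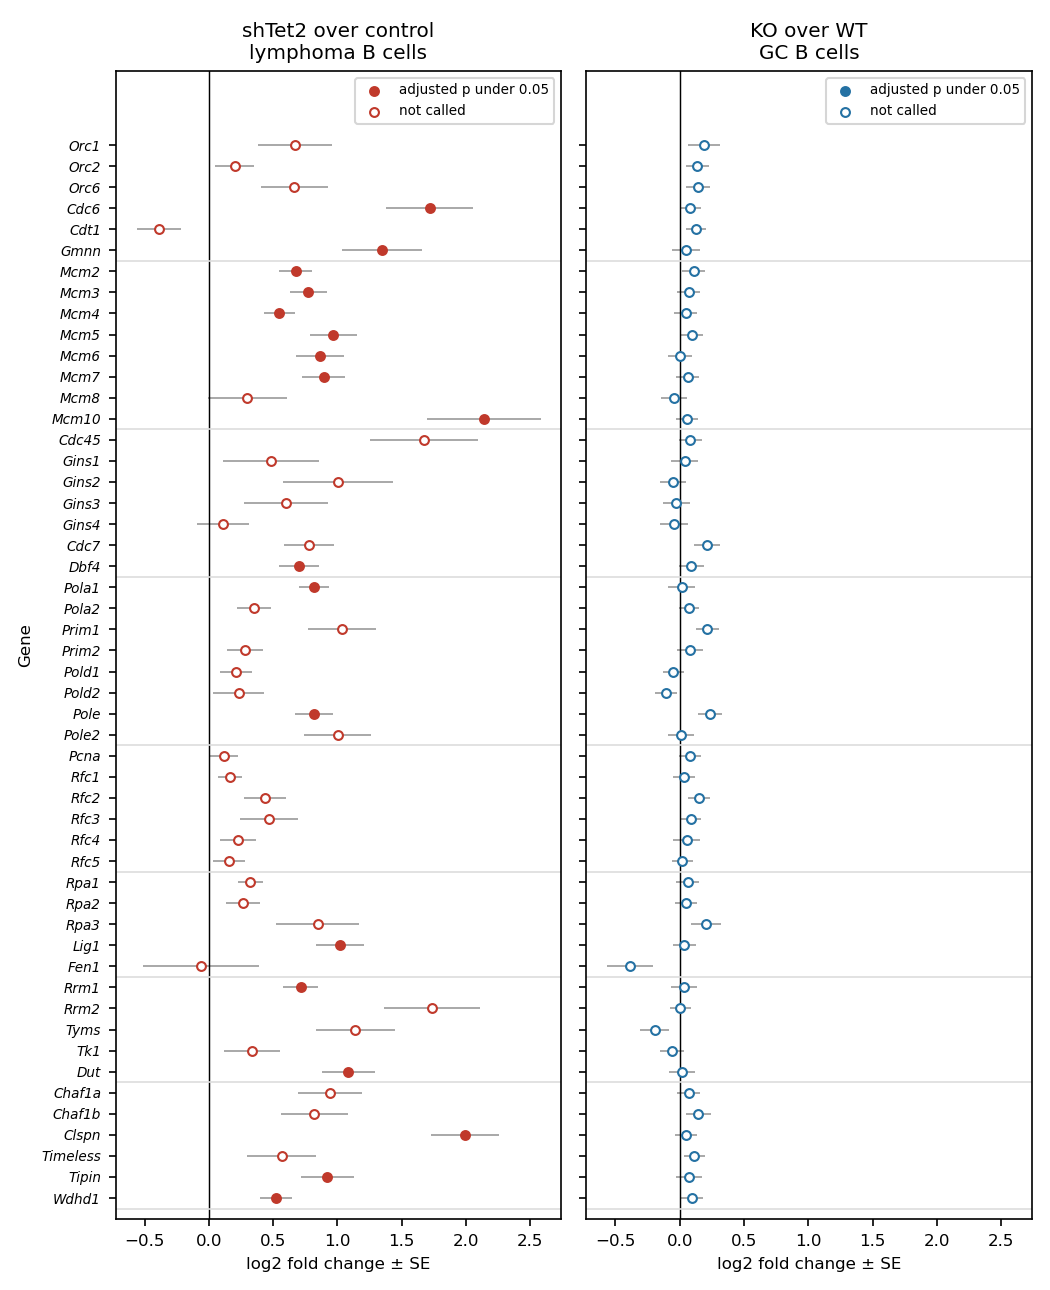
Fitted log2 fold changes of the 51 members by role, with bars of 1 SE, for shTet2 over control lymphoma and for KO over WT GC B cells; filled points passed an adjusted p under 0.05. Lymphoma values reach 2.14 for Mcm10, and GC values stay between -0.39 and 0.23.

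The MCM helicase was the group with the most calls, with 7 of 8 members higher and a median of 0.82. Mcm2 had 57.3 and 75.7 CPM in shTet2, against 41.8, 33.6, 39.1, 44.2 and 44.9 CPM in control (log2 fold change 0.68, SE 0.13, adjusted p = 0.0192). Mcm5 had 66.6 and 87.4 CPM in shTet2, against 39.0, 27.4, 32.8, 44.0 and 48.6 CPM in control (0.97, SE 0.18, adjusted p = 0.0266). For both subunits the shTet2 libraries cleared the highest control. Mcm3 had 70.6 and 89.7 CPM in shTet2, against 56.6, 35.1, 42.5, 48.8 and 46.6 CPM in control (0.77, SE 0.15, adjusted p = 0.0204). Mcm7 had 38.3 and 53.3 CPM in shTet2, against 26.0, 16.8, 23.4, 25.1 and 28.7 CPM in control (0.89, SE 0.17, adjusted p = 0.0192). Mcm4 and Mcm6, the remaining ring subunits, were higher by 0.55 and 0.86 (adjusted p = 0.0365 and 0.0478). The whole ring was thus called, each subunit with 2 shTet2 libraries above 5 controls. Mcm10, which helps the loaded helicase to start and is not part of the ring, had 12.5 and 22.4 CPM in shTet2, against 3.51, 1.46, 1.91, 5.09 and 6.68 CPM in control (2.14, SE 0.44, adjusted p = 0.0494). It had the largest fold change of the 51 and was among those closest to the threshold. Mcm8, a relative that acts in repair of broken forks, had 4.58 and 8.50 CPM in shTet2, against 3.13 to 6.28 CPM in control, and was not called (0.30).

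Among the 6 licensing genes 2 were called higher, with a median of 0.67. Cdc6, the loader ATPase, had 9.31 and 16.2 CPM in shTet2, against 4.68, 1.46, 2.55, 4.31 and 5.34 CPM in control (log2 fold change 1.72, SE 0.34, adjusted p = 0.0260). Gmnn had 5.64 and 13.8 CPM in shTet2, against 4.49, 4.38, 3.18, 3.39 and 3.61 CPM in control (1.35, SE 0.31, adjusted p = 0.0400). In both genes the shTet2 libraries lay above all controls, and replicate 2 was the higher one. Cdt1 had 28.4 and 18.3 CPM in shTet2, against 26.0, 28.9, 34.8, 29.5 and 31.5 CPM in control (-0.39, SE 0.17, adjusted p = 0.239). It was the member with the lowest fold change and did not pass the test, except that it was called lower without shTet2 replicate 1. Orc1, the largest subunit of the origin recognition complex, had 4.98 and 5.98 CPM in shTet2, against 3.51, 1.46, 3.91, 3.39 and 3.87 CPM in control (0.67, adjusted p = 0.233). Orc1 did not pass the test although its libraries did not overlap.

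Of the helicase partners and kinase, 1 of 7 was called, with a median of 0.70. Dbf4, the activating subunit of the CDC7 kinase, had 23.0 and 33.3 CPM in shTet2, against 14.98 to 18.5 CPM in control (log2 fold change 0.70, SE 0.15, adjusted p = 0.0344). Its catalytic partner Cdc7 had 11.4 and 17.7 CPM in shTet2, against 7.48 to 9.27 CPM in control, and missed the threshold (0.78, adjusted p = 0.0589). Cdc45, which completes the active helicase, had 6.86 and 17.7 CPM in shTet2, against 3.51, 4.38, 1.82, 4.31 and 5.34 CPM in control (1.67, SE 0.42, adjusted p = 0.0746). For these 3 genes the libraries of the groups did not overlap. Among the GINS subunits, Gins2 had 1.88 and 4.72 CPM in shTet2, against 1.001 to 2.34 CPM in control (1.004), and Gins4 had 11.7 and 15.9 CPM in shTet2, against 9.95 to 15.7 CPM in control (0.11). None of the 4 GINS genes was called.

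Of the 8 polymerase genes 2 were called, with a median of 0.58. Pola1, the catalytic subunit of polymerase alpha, had 49.0 and 45.0 CPM in shTet2, against 27.9, 29.2, 23.7, 26.8 and 25.2 CPM in control (log2 fold change 0.82, SE 0.11, adjusted p = 0.00502). It averaged 47.0 ± 2.82 CPM in shTet2 (SD, n = 2) and 26.6 ± 2.19 CPM in control (SD, n = 5), and its fold change stayed between 0.75 and 0.88 and remained called whichever library was left out. Pole, the catalytic subunit of the leading-strand polymerase epsilon, had 35.9 and 49.6 CPM in shTet2, against 28.3, 25.6, 21.5, 22.6 and 22.4 CPM in control (0.82, SE 0.15, adjusted p = 0.0168). Prim1, the primase subunit, had 10.8 and 22.4 CPM in shTet2, against 6.37 to 10.3 CPM in control (1.04, adjusted p = 0.0685), and Pole2 had 7.03 and 9.34 CPM in shTet2, against 2.56 to 5.61 CPM in control (adjusted p = 0.0702). Both lay above every control without passing the test. Pold1, the catalytic subunit of polymerase delta, had 71.8 and 57.6 CPM in shTet2, against 45.9, 57.7, 58.0, 59.8 and 54.5 CPM in control, with replicate 2 inside the control range.

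The clamp and its loader had 0 of 6 members called and a median of 0.20. Pcna had 98.0 and 85.0 CPM in shTet2, against 80.8, 68.3, 87.8, 86.9 and 91.2 CPM in control (log2 fold change 0.11, SE 0.11, adjusted p = 0.615), and the groups overlapped. Rfc3 had 12.2 and 14.1 CPM in shTet2, against 5.48 to 11.9 CPM in control, and Rfc2 had 48.7 and 78.0 CPM in shTet2, against 40.6 to 51.7 CPM in control (0.44, adjusted p = 0.179). Neither loader subunit passed the test. In single-strand binding and Okazaki maturation 1 of 5 was called: Lig1 had 36.7 and 48.2 CPM in shTet2, against 21.1, 13.9, 17.6, 23.2 and 25.9 CPM in control (1.02, SE 0.19, adjusted p = 0.0192). Rpa1, the large subunit of replication protein A, had 101 and 120.2 CPM in shTet2, against 80.4 to 93.1 CPM in control (0.32, adjusted p = 0.104), and Rpa2 had 23.4 and 22.6 CPM in shTet2, against 16.4 to 21.3 CPM in control. Both were above every control and not called. Fen1 had 1.47 and 0.945 CPM in shTet2, against 0.585 to 1.64 CPM in control (-0.06, SE 0.45). No difference was detectable at its 3 to 18 counts per library, and its level is uncertain because 84.2% of its exon bases are shared.

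Nucleotide supply had 2 of 5 members called and a median of 1.08. Dut had 12.7 and 18.9 CPM in shTet2, against 8.20, 5.48, 6.46, 8.35 and 7.74 CPM in control (log2 fold change 1.08, SE 0.20, adjusted p = 0.0190). Rrm1, the large subunit of ribonucleotide reductase, had 67.7 and 99.6 CPM in shTet2, against 50.9, 46.4, 45.6, 51.7 and 56.3 CPM in control (0.71, SE 0.14, adjusted p = 0.0200). Its small partner Rrm2 had 21.8 and 39.1 CPM in shTet2, against 8.78, 3.29, 6.73, 11.5 and 12.8 CPM in control (1.74, SE 0.37, adjusted p = 0.0633). The gap of Rrm2 was wider than that of Rrm1, but its controls spread more and it missed the threshold. Tyms, which makes thymidylate, had 7.27 and 12.1 CPM in shTet2, against 2.82 to 6.26 CPM in control (1.14, adjusted p = 0.0754). Tk1, which salvages thymidine, had 29.2 and 28.6 CPM in shTet2, against 27.5, 32.5, 19.3, 18.7 and 17.9 CPM in control, so that 1 control was above both.

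Of the 6 genes of nucleosome assembly and fork protection, 3 were called, with a median of 0.87. Clspn, the checkpoint adaptor claspin, had 18.5 and 28.03 CPM in shTet2, against 6.24, 2.92, 4.28, 7.83 and 6.68 CPM in control (log2 fold change 1.99, SE 0.26, adjusted p = 0.00502). It averaged 23.3 ± 6.71 CPM in shTet2 (SD, n = 2) and 5.59 ± 1.97 CPM in control (SD, n = 5), and its fold change stayed between 1.66 and 2.25 whichever library was left out. Clspn and Pola1 were the only members called in each of those fits. Tipin had 11.9 and 19.4 CPM in shTet2, against 6.58 to 9.37 CPM in control (0.92, SE 0.21, adjusted p = 0.0363). Wdhd1, which links polymerase alpha to the helicase, had 32.6 and 37.7 CPM in shTet2, against 20.1 to 27.2 CPM in control (0.52, SE 0.13, adjusted p = 0.0490). Timeless, the partner of TIPIN, had 14.3 and 19.5 CPM in shTet2, against 14.8, 5.48, 9.10, 12.01 and 13.6 CPM in control, and overlapped. Chaf1a, the large subunit of chromatin assembly factor 1, had 12.7 and 18.7 CPM in shTet2, against 5.37 to 11.2 CPM in control (0.94, adjusted p = 0.0724). Chaf1a was above every control without passing the test.

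**Figure D5:**
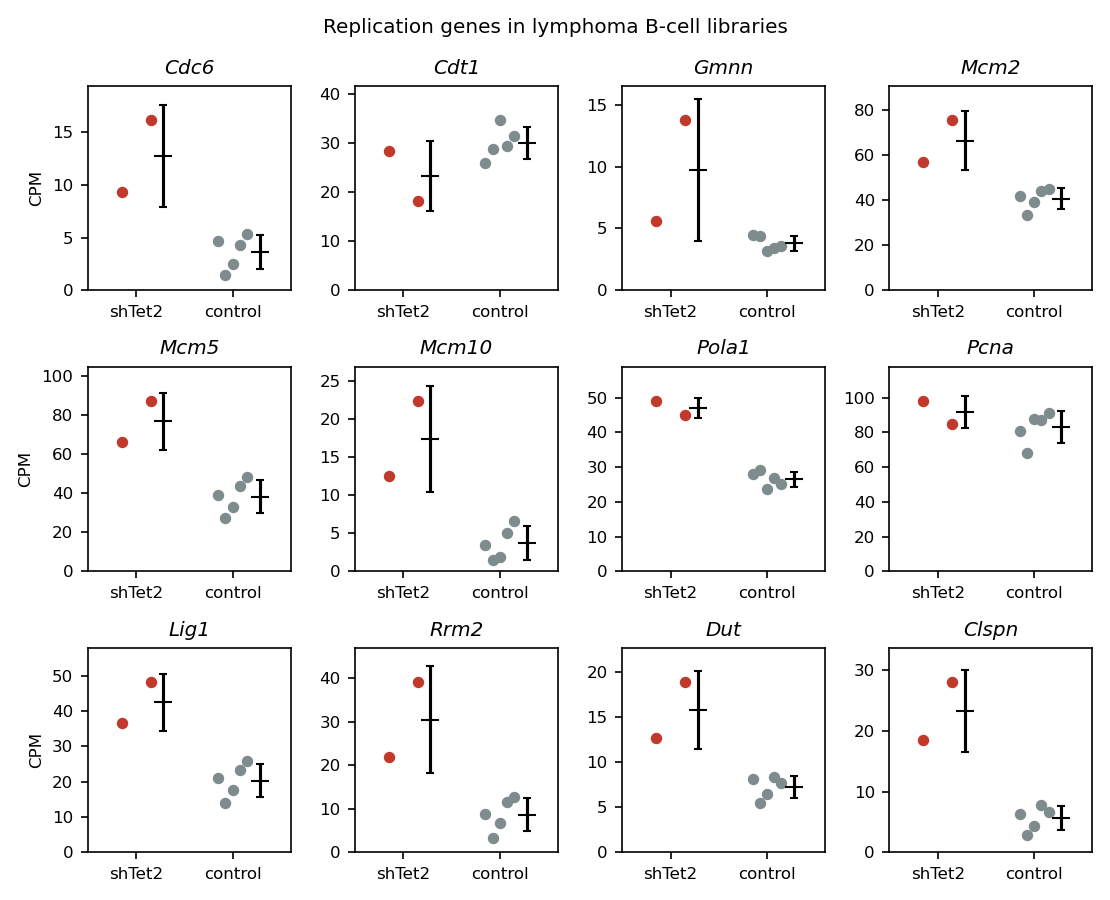
CPM of selected members in each shTet2 and control lymphoma library, 1 point a library, with the mean and 1 SD as a bar beside the points (n = 2 and 5). Pola1 was at 49.0 and 45.0 CPM in shTet2, above 23.7 to 29.2 CPM in control, while Pcna and Cdt1 overlapped between the groups.

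The shTet2 libraries differed from each other and carried other differences from control beside the replication genes. Replicate 1 lay above every control for 36 members (70.6%) and replicate 2 for 45 (88.2%), beside 20.4% and 32.4% of all genes tested. Cell type markers moved in the same libraries. Of the 4 germinal center B cell markers named above, Fas (log2 fold change 1.29, adjusted p = 0.0148) and S1pr2 (2.73, adjusted p = 0.0297) were called higher in shTet2. Mybl1, at 61.1 to 79.7 CPM in shTet2, against 3.29 to 20.6 CPM in control, lay above every control without passing the test (2.69, adjusted p = 0.0549), and Bcl6 overlapped (-0.02). Fas, Mybl1 and S1pr2 were also called higher in the difference between the shTet2 and KO effects described below. Of the 4 plasma cell markers 2 were called higher in shTet2, Prdm1 (log2 fold change 1.21) and Xbp1 (0.81), and their sum was 562 and 291 CPM in replicates 1 and 2, against 129 to 240.1 CPM in control. The macrophage and myeloid markers had 0 of 8 tested called, with a sum of 52.6 and 170.7 CPM in shTet2, against 49.95 to 61.7 CPM in control, and the excess in replicate 2 included Itgam at 84.0 CPM. T cell markers had 0 of 4 tested called and summed to 9.07 and 11.8 CPM in shTet2, against 5.27 to 6.94 CPM in control. Naive B cell markers had 0 of 5 called and summed to 1072 to 1354 CPM in shTet2, against 1430 to 1652 CPM in control. No marker of these lists that is named here was at 0 in any lymphoma library, and their part in the result was not tested.

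The third comparison sets KO against WT GC B cells. No difference in the replication machinery passed the test: 0 of 51 members were called by edgeR, while 6.49% of the 13600 genes tested were called, 1.92% higher and 4.57% lower. At an unadjusted p under 0.05 there were 3 of 51 members, Pole and Prim1 higher and Fen1 lower, beside 2700 of the 13600 genes tested. DESeq2 and limma-voom also called 0 members. The median log2 fold change was 0.06, beside 0.01 over all genes, with a range of -0.39 to 0.23. Of the members 42 were positive and 9 negative, beside 7036 and 6564 of all genes tested. In 5 members (9.80%) every KO library lay above every WT library, against 11.9% of all genes, and in 0 members below, against 8.30%. The count of non-overlapping members was thus near the background. The members' summed level in KO was 1.08-fold that in WT.

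Pole had 118, 149.7, 139.5 and 131 CPM in KO, against 107, 118 and 105 CPM in WT (log2 fold change 0.23, adjusted p = 0.154). Prim1 had 143, 124, 119 and 115 CPM in KO, against 100.4, 101 and 111 CPM in WT (0.21, adjusted p = 0.199). Cdt1 had 85.1, 89.99, 79.98 and 86.5 CPM in KO, against 75.1, 74.7 and 76.7 CPM in WT. Cdc6 had 68.4, 67.2, 63.1 and 60.8 CPM in KO, against 58.1, 60.5 and 58.7 CPM in WT, and Orc6, the smallest origin recognition subunit, was the fifth member without overlap. Fen1 had 2.97, 4.29, 3.60 and 3.88 CPM in KO, against 3.82, 5.61 and 4.57 CPM in WT (-0.39, adjusted p = 0.246), the lowest fold change of the members. Members called in shTet2 against control are set beside these, with Pcna, which was not. Clspn had 122, 133, 134 and 115 CPM in KO, against 117, 129 and 108 CPM in WT (0.05, SE 0.09), and Pola1 had 108, 106, 119 and 101 CPM in KO, against 103, 121 and 86.9 CPM in WT (0.01, SE 0.10). Mcm2 had 330.0, 335, 377 and 342 CPM in KO, against 282, 345 and 302 CPM in WT, and Mcm5 had 515.4, 512.1, 576 and 537 CPM in KO, against 440.3, 522 and 491 CPM in WT. Pcna had 186, 164, 187 and 167 CPM in KO, against 154, 175 and 152 CPM in WT. In all 5 the groups overlapped. Other cell markers did move between these groups: 8 of the 8 macrophage and myeloid markers tested were lower, with a sum of 12.8 to 16.8 CPM in KO and 29.0 to 41.5 CPM in WT, and 4 of 5 naive B cell markers were lower, with a sum of 347.7 to 414 CPM in KO and 557 to 616.5 CPM in WT. Of the 3 T cell markers tested, Thy1 was higher in KO (log2 fold change 2.51, adjusted p = 0.000351), and the 5 listed summed to 2.14 to 2.40 CPM in KO and 0.609 to 1.17 CPM in WT. Marco, a macrophage marker, was at 0 in 1 WT library, and the T cell marker Cd3e was at 0 in 1 KO library and 1 WT library. The part of these markers in the members' values was not tested.

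The shTet2 effect and the KO effect were then compared with each other across all 14 libraries, as shTet2 over control minus KO over WT. For 16 members the lymphoma effect was called higher than the GC effect, and for 0 lower, while 4.99% of 15441 genes were called, 3.39% higher and 1.61% lower. The median difference of the members was 0.53, beside -0.01 over all genes. Of the 16, 13 were also called in shTet2 against control as fitted within its own table, while Pole2, Rrm2 and Tyms were not. In 1 model of all 14 libraries, shTet2 against control also called Pole2, Rrm2 and Tyms. That model called 27 members and 840 of 15441 genes. Dbf4, Mcm2, Mcm4, Pole and Wdhd1 were called in shTet2 against control without a call in the difference. Clspn had the smallest adjusted p of the members, with a difference of 1.89 (adjusted p = 0.000291), followed by Cdc6 with 1.59 (adjusted p = 0.00365). Rrm2 differed by 1.67 (adjusted p = 0.013), Dut by 1.02 (adjusted p = 0.00599) and Pola1 by 0.78 (adjusted p = 0.00629). Pcna differed by -0.00, and Cdt1 by -0.55 without passing the test (adjusted p = 0.0798). Clspn, Cdc6 and Pola1 were called in every fit that left out 1 library. The count of higher calls was 8 without WT replicate 3, and 10 without control replicate 3 or KO replicate 5. Over all genes tested, 337 were higher without WT replicate 3, 373 without control replicate 3 and 365 without KO replicate 5, against 523 with every library kept. Without shTet2 replicate 2 the higher calls fell further, both among the members and over all genes. Knock-down and knock-out differ here together with cell type and count table, so these cannot be told apart. The shTet2 effect and the lymphoma over GC comparison use the same control libraries, so their values are set side by side: Clspn was 1.99 in shTet2 over control and -4.34 in control over WT, Rrm2 was 1.74 and -4.66, and Pcna was 0.11 and -0.94. Even with the higher levels in shTet2, the members' summed level there was 24.2% of that in WT.

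Other genes of the cell cycle were set beside these values. They came from fixed lists, which were chosen with earlier results of these data known, and the genes named here are among those that passed the test. In shTet2 against control, where 1.84% of all genes tested were higher, 7 of 40 other replication genes were called higher and 0 lower. Their median was 0.30, and those called included the histone chaperone Asf1b (1.32) and the topoisomerase Top2a (1.86). Of 24 tested genes of E2F and S-phase entry, 3 were called higher: the cyclin Ccna2 (1.84), the E2F partner Tfdp1 (1.30) and the repressor E2f7 (1.38). Mitosis genes moved further than the replication machinery, with 17 of 20 called higher and a median of 1.74. Cenpe, the kinetochore motor, was higher by 1.62 (adjusted p = 0.000571) and the kinase Plk1 by 1.98. In KO against WT, 0 of 20 mitosis genes were called, and 3 of 40 other replication genes were higher: Orc4 (0.43), Atad5 (0.39) and Recql4 (0.35). Cdkn2c, an inhibitor of the cyclin D kinases, was lower in KO (-0.43). Over all genes tested in KO against WT, 1.92% were higher and 4.57% lower. In control against WT, 40.4% of all genes tested were lower and 40.2% higher. There, 20 of 20 mitosis genes were lower, with a median of -4.13, and other replication genes split into 31 lower and 6 higher. The higher replication genes included Orc4 (1.12), a subunit of the same complex as Orc1, and Rif1 (0.92), which delays late origins. Of 25 E2F and S-phase genes 17 were lower, among them E2f1 (-4.04), and 5 were higher, among them the pocket protein Rb1 (2.31) and the inhibitor Cdkn1b (2.49).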

How the data were processed

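RNA was made into libraries with a stranded mRNA kit and sequenced, per the labels' protocols. The authors deposited raw counts per gene, 1 table for GC and 1 for lymphoma B cells; per the file headers, reads were counted over exons by gene name with featureCounts 1.5.1, with no strand option. STAR 2.3.0e and build GRCm38.p3 are named in the submitters' processing notes. Counts were tested with edgeR 4.0.16 in R 4.3.3 (TMM scaling, filterByExpr by group, robust quasi-likelihood fit, Benjamini-Hochberg adjustment over all genes tested, threshold 0.05). An SE is the absolute log2 fold change over the square root of F. KO against WT and shTet2 against control were fitted within their own table. The difference of effects and control against WT were fitted over all 14 libraries, across tables that were counted apart. Levels are CPM with TMM scaling over all 14 libraries; CPM per kb divides them by exon length. Alternatives used limma 3.58.1 (voom), DESeq2 1.42.0, other scalings, filters, a replicate block and fits without each library. The scripts were tested on simulated data. Depth outside structural RNA, 1525344 counts in the shallowest control, limits precision for low members. Any member could be named; values in every library were given for the 24 genes of a fixed list and for those with the smallest p or extreme fold changes, and in compressed form for the rest. The members, lists and tests were chosen with earlier results of these data known.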

Additional observations from a re-analysis of the deposited data

Results flagged for a closer look

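In 3 of 102 sets of 4 or 5 libraries (2.94%), 1 library stood far from the others of its group, and chance gives about 1 in 20. Mcm4 in KO replicate 4 was at 345.9 CPM, against 298.7 to 305.0 CPM in the other KO libraries. Wdhd1 in KO replicate 5 was at 81.77 CPM, against 95.49 to 97.82 CPM in the other KO libraries. Orc1 in control replicate 2, the shallowest library, was at 1.462 CPM, against 3.394 to 3.912 CPM in the other controls.

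The shTet2 effect in lymphoma cells exceeded the KO effect in GC cells for 16 members by an interaction term in edgeR's fit of all 14 libraries. On the log2 scale the MCM genes differed by 2.037 (Mcm10, adjusted p = 0.0111), 0.838 (Mcm5, adjusted p = 0.0196), 0.8262 (Mcm6, adjusted p = 0.0292), 0.7884 (Mcm7, adjusted p = 0.0196) and 0.6685 (Mcm3, adjusted p = 0.0358). The licensing genes Cdc6 and Gmnn differed by 1.588 (adjusted p = 0.00365) and 1.27 (adjusted p = 0.0406). The fork proteins Clspn and Tipin differed by 1.894 (adjusted p = 0.000291) and 0.8031 (adjusted p = 0.0322). The nucleotide genes Rrm2, Tyms, Dut and Rrm1 differed by 1.673 (adjusted p = 0.013), 1.319 (adjusted p = 0.021), 1.024 (adjusted p = 0.00599) and 0.6449 (adjusted p = 0.048). Lig1, Pole2 and Pola1 differed by 0.9396 (adjusted p = 0.00951), 0.9431 (adjusted p = 0.0268) and 0.7765 (adjusted p = 0.00629).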

How the results depend on the processing

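Control against WT kept 51 members lower in every setting, and KO against WT kept 0 called members in every setting run. In shTet2 against control, upper-quartile scaling called 17 members higher, limma-voom 13, DESeq2 22, no filter 22 and 1 model of all libraries 27, against 18. Over all genes tested, these settings called 330, 289, 583, 782 and 840 genes in the same order, against 330. Leaving out 1 library gave 2 to 30 higher and 0 to 1 lower there, and 3 to 29 higher and 0 to 1 lower in the difference of effects; where 1 shTet2 library remained, it was assumed to vary like the controls. The upper ends of these ranges, higher and lower, came from the fits without shTet2 replicate 1. Calls over all genes also rose most in those fits, in both directions, so these upper ends are not particular to the members. In shTet2 against control, calls over all genes were 100 without control replicate 3 and 264 without control replicate 5, against 330 with every library kept. DESeq2 called 1 member lower in the difference. With the replicate block, 0 members and 4 of 12797 genes were called in shTet2 against control, with 22 members at an unadjusted p under 0.05. In the difference the block called 3 members and 256 of 15441 genes. It changed no member's call in the other comparisons. Same-numbered GC libraries had correlations of 0.03 and -0.01 between their deviations from the group means, and same-numbered lymphoma libraries -0.10 and -0.01. The deviations of 2 shTet2 libraries mirror each other, so the lymphoma values cannot show or exclude pairing. Whether the numbers pair libraries was not settled. With the replicate block Fen1 was at 0.38 and Tk1 at -0.0774. With the structural RNA share as a covariate, 0 members were called higher, and Gins2 was at -0.34, Rfc3 at -0.17, Fen1 at 0.68 and Timeless at -0.34. Across fits without 1 library, Pcna ranged from -0.0028 to 0.21 and Fen1 from -0.44 to 0.20 in shTet2 against control. The cause of these changes was not tested. A filter at 1 CPM left 50 members tested there. Median-of-ratios scaling moved the median of all genes by 0.14 in control against WT. Lymphoma depth limits members with few counts.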
